A study of Mus musculus with 8 samples.

Results

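The 8 genes described here mark the neurons and the glia of the gut wall: Elavl4, Uchl1, Tubb3, Snap25 and Ret on the neuron side, and Sox10, S100b and Gfap on the glial side. They were taken by symbol from a table of 24411 genes, all 8 were present, and all 8 were among the 15298 genes that passed the filter on low counts. RNA sequencing had been done on the small intestine of mice of the hUGT1 genotype, transgenic animals with the human UGT1 locus, a genotype that both groups shared. The pups were 14 days old and had been given vehicle or arsenic (10 mg/kg), and the labels give a time of 24 h. There were 12 mice in a group and 3 in each pooled library, so that 4 vehicle pools were compared with 4 arsenic pools and a single animal cannot be seen in any value. The sources used here give neither the route of dosing nor the part of the small intestine.

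The enteric nervous system is a net of neurons and glia that lies between the muscle layers and under the mucosa and that directs contraction, secretion and local blood flow. It is built by neural crest cells that colonise the gut before birth, a process that needs the receptor RET with its ligand GDNF, the endothelin receptor EDNRB and the transcription factor SOX10, and whose failure leaves the distal bowel without ganglia in Hirschsprung disease. In whole tissue these cells give a small part of the RNA, and fewer cells of a type and less RNA per cell cannot be told apart.

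Of the 8 genes, Ret and S100b fell with arsenic, Gfap rose, and the other 5 did not pass the test (edgeR quasi-likelihood test, adjusted p below 0.05 over all tested genes). Of all tested genes, 65.3% passed, 32.3% higher and 33.0% lower. The pools of both groups were fully apart for Ret, S100b and Gfap, and they overlapped for the other 5, whereas the groups did not overlap for 59.4% of all tested genes. Levels are given as CPM (counts scaled to library size, here after TMM scaling), as mean ± SD over n = 4 pools. A log2 fold change sets arsenic against vehicle, so that a negative value means lower with arsenic. The pools held from 18786779 to 29417666 counts, and the epithelial genes Vil1 (1823 ± 54.0 CPM with vehicle) and Cdx2 (184 ± 5.11 CPM) were present, as were markers of muscle and endothelium.

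**Figure D1:**
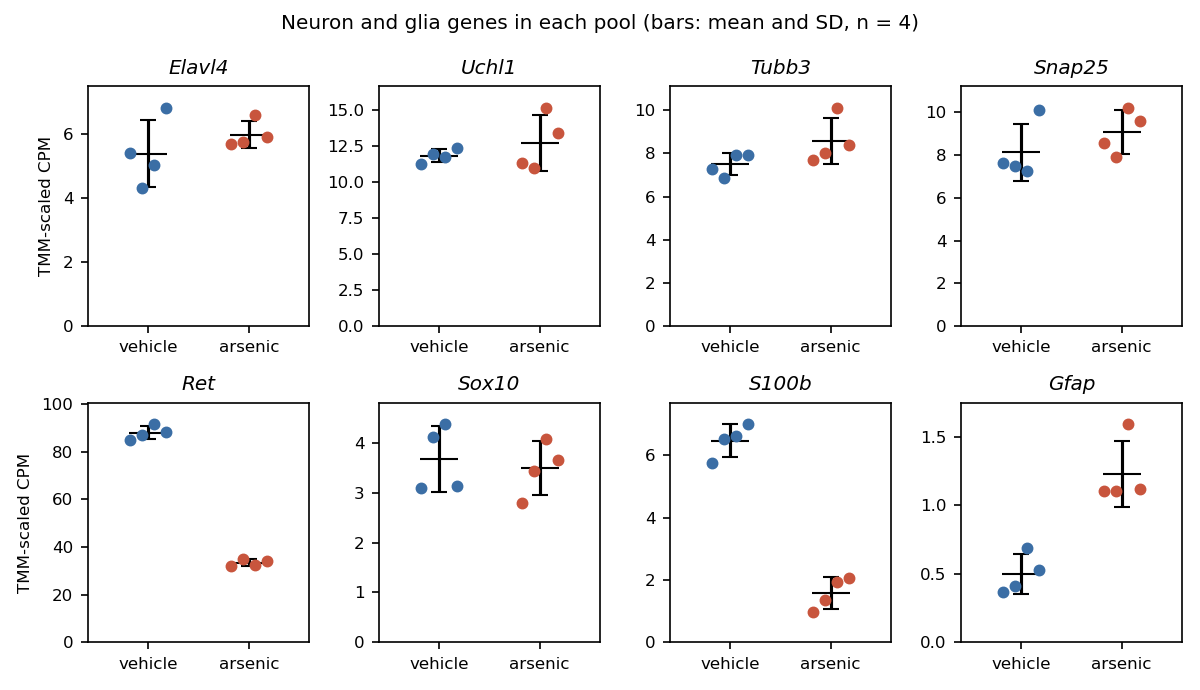
TMM-scaled CPM of the 8 genes in each of 4 vehicle (blue) and 4 arsenic (red) pools, each panel starting at 0, with the mean and SD as black bars. The groups lie fully apart for Ret, S100b and Gfap and overlap for the other 5 genes.

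Per length of exon sequence, Ret was the most abundant of the 8 in the vehicle pools, at 13.0 ± 0.402 CPM per kb. Uchl1 came next at 7.24 ± 0.286 CPM per kb, followed by S100b at 4.36 ± 0.348 and Tubb3 at 4.02 ± 0.276 CPM per kb, whose pools overlapped. Sox10 (1.21 ± 0.215 CPM per kb), Snap25 (1.197 ± 0.198) and Elavl4 (0.998 ± 0.196) formed a lower group whose members overlapped with each other, and Gfap was lowest at 0.118 ± 0.0347 CPM per kb. With arsenic the order of these levels was different. Uchl1 stood first at 7.78 ± 1.19 CPM per kb, Ret (4.95 ± 0.210) and Tubb3 (4.59 ± 0.573) overlapped below it, and S100b, at 1.06 ± 0.342 CPM per kb, lay in the range of Snap25, Sox10 and Elavl4. Gfap was again last, at 0.292 ± 0.0572 CPM per kb. Lengths are the merged exons of GENCODE M21 (mm10), so that a gene whose gut transcript is shorter than the annotation is placed too low.

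None of the 4 general neuron genes passed the test, and their groups overlapped. Elavl4, a neuron-specific RNA-binding protein (HuD) that stabilises transcripts of growing neurons, lies on chromosome 4 of mm10 from 110203722 to 110351909. Its CPM were 5.40, 4.30, 5.01 and 6.80 in vehicle replicates 1 to 4 and 5.68, 5.74, 6.57 and 5.90 in arsenic replicates 1 to 4. The arsenic pools all fell inside the vehicle range, and the log2 difference was 0.16 (95% interval -0.10 to 0.43, adjusted p = 0.265, edgeR). Uchl1 on chromosome 5 (66676091 to 66687234) codes for the ubiquitin hydrolase known to histologists as PGP9.5. It stood at 11.2, 12.0, 11.7 and 12.4 CPM with vehicle and at 11.3, 10.96, 15.1 and 13.4 CPM with arsenic. The arsenic pools lay on both sides of the vehicle pools, with arsenic replicate 3 highest (log2 0.11, interval -0.09 to 0.31, adjusted p = 0.327, edgeR). An antisense gene, Uchl1os, shares 295 bp of exon sequence with Uchl1 and has 0 counts in the table.

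Tubb3 on chromosome 8 (123411424 to 123422015) codes for the beta tubulin of neurons. Its CPM were 7.29, 6.87, 7.94 and 7.91 with vehicle and 7.72, 8.03, 10.1 and 8.40 with arsenic. Of the arsenic pools 1 lay inside the vehicle range and the others above it, a log2 difference of 0.20 (interval -0.01 to 0.41) that missed the threshold (adjusted p = 0.0838, edgeR). Without arsenic replicate 1, its lowest arsenic pool, it passed, at log2 0.25 and adjusted p = 0.0463 (edgeR). Snap25 on chromosome 2 (136713453 to 136782428) codes for a membrane-anchored SNARE protein that drives the fusion of synaptic vesicles. It stood at 7.62, 7.51, 7.25 and 10.1 CPM with vehicle and at 8.57, 7.90, 10.2 and 9.60 CPM with arsenic. Vehicle replicate 4 stood far above the other vehicle pools and among the arsenic pools (log2 0.17, interval -0.08 to 0.41, adjusted p = 0.211, edgeR). When that pool was left out, Snap25 (log2 0.30, adjusted p = 0.0212) and Elavl4 (log2 0.30, adjusted p = 0.0331) both passed in the edgeR test. It was the highest vehicle pool for both genes, so leaving it out raises both differences in any case. Vehicle replicate 4 also had Y-linked counts near 0 and arsenic replicate 3 the lowest Xist level, and with both left out Ret, S100b and Gfap were again the genes that passed among the 8.

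The upper limits of these 4 intervals correspond to rises between 1.24-fold (Uchl1) and 1.35-fold (Elavl4), and the lower limits to falls of at most 0.10 on the log2 scale. A change of the size seen for Ret or S100b therefore lies outside the interval of each of them.

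Ret, the tyrosine kinase receptor through which GDNF and its relatives act on enteric neurons and their precursors, showed a large fall. The gene lies on chromosome 6 from 118151745 to 118197718 on the minus strand. Its CPM were 85.0, 87.0, 91.5 and 88.4 in vehicle replicates 1 to 4 and 32.2, 35.1, 32.3 and 34.3 in arsenic replicates 1 to 4. Every arsenic pool was far below every vehicle pool, and the spread within each group was small beside the gap. The mean went from 88.0 ± 2.72 to 33.5 ± 1.42 CPM, 2.63-fold lower (log2 -1.39, SE 0.04, adjusted p = 1.82e-12, edgeR), and its log2 fold change was the 262nd lowest of 15298. In the authors' deposited table the log2 fold change of Ret was -1.38 and its adjusted p 1.84e-148. The authors' deposited table gives S100b a log2 fold change of -2.03 (adjusted p 4.34e-28) and Gfap one of 1.36 (adjusted p 0.000147). Its columns of significance marks are set for Ret and S100b, and in the authors' deposited table Gfap has neither mark.

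Of 7 ligands and co-receptors of RET 1 was lower, none was higher and 6 did not pass, with a median log2 change of 0.03 against -0.03 over all tested genes. Gdnf, the main ligand in the gut, stood at 4.02 ± 0.477 CPM with vehicle and 4.07 ± 0.295 with arsenic. Its co-receptor Gfra1 stood at 5.36 ± 0.410 and 4.73 ± 0.884 CPM (log2 -0.17, interval -0.44 to 0.10), and Gfra2, the co-receptor of neurturin, at 8.07 ± 0.416 and 7.85 ± 0.836 CPM. Nrtn, neurturin itself, fell from 6.599 ± 0.659 to 5.40 ± 0.356 CPM (log2 -0.29, adjusted p = 0.0185, edgeR). That call was lost in DESeq2 (adjusted p = 0.0508) and in edgeR without vehicle replicate 2 (0.0704), vehicle replicate 4 (0.0775), arsenic replicate 4 (0.0641) or both vehicle replicate 4 and arsenic replicate 3 (0.0783). Artn had a log2 value of 0.40 (adjusted p = 0.0854, edgeR) and Gfra3 and Gfra4 did not pass either.

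Of the 3 glial genes S100b fell, Gfap rose and Sox10 did not pass. Sox10, the transcription factor that defines neural crest cells and, after birth, glia, lies on chromosome 15 from 79154908 to 79165240. It stood at 3.10, 4.11, 4.37 and 3.14 CPM with vehicle and at 2.79, 3.44, 4.08 and 3.66 CPM with arsenic. The groups overlapped almost fully, with means of 3.68 ± 0.656 and 3.49 ± 0.540 CPM (log2 -0.07, interval -0.38 to 0.25, adjusted p = 0.714, edgeR). S100b on chromosome 10 (76253853 to 76261159), a calcium-binding protein of glia, stood at 5.76, 6.54, 6.61 and 6.995 CPM with vehicle and at 0.965, 1.36, 1.92 and 2.05 CPM with arsenic. The highest arsenic pool was far below the lowest vehicle pool. The mean fell from 6.47 ± 0.517 to 1.58 ± 0.507 CPM, 4.10-fold lower (log2 -2.04, SE 0.17, adjusted p = 6.12e-08, edgeR), and its log2 fold change was the 94th lowest of 15298. Gfap on chromosome 11 (102887336 to 102900912), the intermediate filament of astrocytes and of part of the enteric glia, went the other way. Its counts were low, 10, 11, 13 and 11 with vehicle and 31, 26, 48 and 25 with arsenic, which is 0.365, 0.411, 0.693 and 0.531 CPM against 1.11, 1.10, 1.59 and 1.12 CPM. Every arsenic pool was above every vehicle pool, and the mean rose 2.56-fold from 0.4997 ± 0.146 to 1.23 ± 0.241 CPM (log2 1.36, interval 0.83 to 1.89, adjusted p = 0.000208, edgeR). Gfap passed the filter through its arsenic pools, and the width of its interval reflects the few counts. The intervals of S100b, Sox10 and Gfap did not overlap with each other, although all 3 genes are used as markers of the same cells.

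The promoter sequences of S100b and Gfap, called in opposite directions, and of the uncalled neuron gene Tubb3 are shown as examples with few and with many CG. Each covers 250 bases before to 50 after the start of the RefSeq transcript (GRCm38.p6), 5′ to 3′ on the gene's strand, and capitals mark every CG. The set of RefSeq promoters used here held entries for 5 of the 8 genes and none for Ret, Snap25 and Sox10.
S100b (chr10:76253586-76253885, plus strand): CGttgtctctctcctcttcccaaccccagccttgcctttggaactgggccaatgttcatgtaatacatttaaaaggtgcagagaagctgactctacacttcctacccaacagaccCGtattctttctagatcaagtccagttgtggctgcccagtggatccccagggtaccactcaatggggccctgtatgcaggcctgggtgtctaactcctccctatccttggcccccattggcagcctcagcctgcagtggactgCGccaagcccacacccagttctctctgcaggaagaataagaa
Gfap (chr11:102897151-102897450, minus strand): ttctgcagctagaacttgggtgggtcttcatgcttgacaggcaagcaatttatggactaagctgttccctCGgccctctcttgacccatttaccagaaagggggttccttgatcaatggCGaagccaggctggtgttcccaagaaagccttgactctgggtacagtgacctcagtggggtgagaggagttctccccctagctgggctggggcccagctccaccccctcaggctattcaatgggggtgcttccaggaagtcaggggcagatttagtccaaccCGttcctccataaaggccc
Tubb3 (chr8:123411303-123411602, plus strand): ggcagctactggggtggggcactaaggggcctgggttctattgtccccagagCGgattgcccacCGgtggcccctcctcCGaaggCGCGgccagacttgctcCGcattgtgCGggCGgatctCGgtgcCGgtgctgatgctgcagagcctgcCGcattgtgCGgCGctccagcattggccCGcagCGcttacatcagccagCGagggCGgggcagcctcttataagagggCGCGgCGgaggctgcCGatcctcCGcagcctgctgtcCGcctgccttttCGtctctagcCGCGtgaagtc
The S100b and the Gfap promoter each hold 3 CG, and the Tubb3 promoter holds 26, where the median of 32851 mouse promoters of this length is 7. Uncalled genes were found with fewer CG than Tubb3 as well. The Uchl1 promoter holds 9 CG, and the Elavl4 promoters hold 23, 5, 6 and 4. Searched on both strands, neither glial promoter contains ACAAAG (a SOX core, in 18.7% of all promoters), TGACNNNGC (the antioxidant response element, 12.4%), TATAAA (13.6%) or GGGCGG (the GC box, 35.7%). The Tubb3 promoter contains GGGCGG at 2 places, each overlapping a marked CG, and none of the other letters. These are matches of letters in a short window only.

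Most of the other listed genes of neurons and glia did not pass the test. Over the 8 lists of neuron and glia genes besides the 8 genes, 90 genes were tested, of which 8 were higher, 14 lower and 68 not called. That is 24.4% called, against 65.3% of all tested genes. Since genes with few counts are called less often, the share was also taken among genes with a mean between 1 and 20 CPM, where 12 of 71 listed genes were called (16.9%) and 56.0% of all genes in that range. The median size of the log2 change, taken without sign, was 0.19 for the listed genes and 0.29 for all tested genes. The number higher was 16 without vehicle replicate 4 and 5 without both vehicle replicate 4 and arsenic replicate 3.

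In the list of neuronal cytoskeleton and RNA-binding genes 1 of 15 rose, 1 fell and 13 did not pass (median log2 0.10). Map1b, a microtubule protein of axons, stood at 39.4 ± 2.35 and 40.2 ± 2.14 CPM, and Stmn2, a tubulin-binding protein of growing axons, at 12.3 ± 1.51 and 13.4 ± 1.76 CPM. The gene that fell was Rbfox3, the splicing factor known as NeuN, from 2.12 ± 0.369 to 0.722 ± 0.137 CPM, 2.92-fold lower with no overlap (adjusted p = 7.01e-06, edgeR). Prph, the intermediate filament peripherin of peripheral neurons, was called higher at 12.0 ± 1.03 and 13.8 ± 1.61 CPM (log2 0.22, adjusted p = 0.0433, edgeR). It lost the call in 7 of 16 alternatives, among them leaving out vehicle replicate 1 (adjusted p = 0.107), 2 (0.1000) or 3 (0.0526) or arsenic replicate 1 (0.0560) or 3 (0.172). Gap43, a growth cone protein, stood at 5.11 ± 0.432 and 6.004 ± 0.738 CPM (log2 0.24, adjusted p = 0.0654, edgeR) and passed without vehicle replicate 4 (0.0411) or arsenic replicate 2 (0.0279).

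Of 16 genes of synaptic release 4 fell, 1 rose and 11 did not pass (median log2 -0.07). The active zone protein gene Bsn fell from 29.1 ± 1.99 to 18.2 ± 0.934 CPM, and Cplx2, a clamp on vesicle fusion, from 35.9 ± 2.10 to 22.5 ± 1.55 CPM. Vamp2, the vesicle SNARE that pairs with SNAP25, fell by 0.28 on the log2 scale from 100 ± 2.62 CPM. Syp and Syt1, vesicle proteins used as neuron markers, stood at 7.85 ± 0.674 and 7.72 ± 0.750 CPM and at 8.66 ± 1.27 and 8.18 ± 1.05 CPM. Syt4, a synaptotagmin of dense vesicles, was called higher although its groups overlapped, at 2.36 ± 0.354 and 3.23 ± 0.556 CPM (adjusted p = 0.0130, edgeR).

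Of 15 tested transmitter and peptide genes 3 rose, all of them peptide genes, 1 fell and 11 did not pass (median log2 0.21). Vip, the relaxing and secretion-promoting peptide, went from 9.82 ± 0.773 to 18.7 ± 2.72 CPM, 1.92-fold higher with no overlap (adjusted p = 7.73e-07, edgeR). Npy rose from 1.23 ± 0.288 to 1.98 ± 0.367 CPM and Tac1, the precursor of substance P, from 5.97 ± 0.642 to 7.59 ± 0.660 CPM, both with no overlap (adjusted p = 0.00553 and 0.00731, edgeR). Without vehicle replicate 4 and arsenic replicate 3 together the adjusted p of Tac1 was 0.0726. Nos1, which makes nitric oxide in inhibitory neurons and often shares cells with Vip, stood at 10.4 ± 1.02 and 11.2 ± 1.86 CPM (log2 0.12, interval -0.11 to 0.35). The genes of acetylcholine neurons, Chat (0.653 ± 0.130 and 0.5995 ± 0.0372 CPM) and its transporters Slc18a3 and Slc5a7, did not pass, whereas Ache, which breaks acetylcholine down, fell from 9.28 ± 0.521 to 6.06 ± 0.792 CPM. Of 11 receptor and channel genes 1 rose, the glutamate receptor subunit Gria2, from 1.62 ± 0.286 to 3.66 ± 0.570 CPM (2.27-fold, adjusted p = 1.13e-05, edgeR). Calb2, the calretinin of many enteric neurons, stood at 5.69 ± 0.338 and 6.07 ± 0.959 CPM.

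Hand2, a transcription factor of enteric neurons, stood at 10.5 ± 1.17 and 12.0 ± 2.14 CPM (log2 0.21, adjusted p = 0.125, edgeR). Of the 8 tested transcription factors 2 fell and 6 did not pass. Those 2 were Tbx3 (223 ± 10.4 to 181 ± 5.29 CPM) and Zeb2 (57.5 ± 2.14 to 51.7 ± 2.02 CPM), the most abundant ones (list median log2 0.13). All 3 genes of the endothelin axis were called, and not in 1 direction (median log2 0.16). The ligand Edn3 rose from 3.95 ± 0.449 to 5.50 ± 0.434 CPM (adjusted p = 0.00136, edgeR) and the receptor Ednrb from 55.6 ± 1.64 to 61.9 ± 4.98 CPM (adjusted p = 0.0145, edgeR). The adjusted p of Ednrb was 0.0581 without arsenic replicate 1 and 0.0683 without both vehicle replicate 4 and arsenic replicate 3. The processing enzyme Ece1 fell from 221 ± 5.57 to 166 ± 6.49 CPM.

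Of 15 further glial genes 4 fell, none rose and 11 did not pass (median log2 -0.16). Scn7a, a sodium channel of glia, stood at 10.7 ± 0.506 and 10.1 ± 1.12 CPM. The genes that fell were Erbb3, the neuregulin receptor that glial precursors need, from 239 ± 19.6 to 120 ± 9.65 CPM, the ectonucleotidase Entpd2 from 41.7 ± 3.03 to 21.2 ± 0.987 CPM, Art3 and Col28a1. Erbb3 is also known in gut epithelium. Col28a1 (log2 -0.36, adjusted p = 0.0144, edgeR) lost its call in 3 of 16 alternatives, in DESeq2 (adjusted p = 0.0526) and in edgeR without vehicle replicate 4 (0.0552) or without both vehicle replicate 4 and arsenic replicate 3 (0.0822). Foxd3, a neural crest factor, stood at 0.691 ± 0.0965 and 0.916 ± 0.0445 CPM (adjusted p = 0.101, edgeR).

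**Figure D2:**
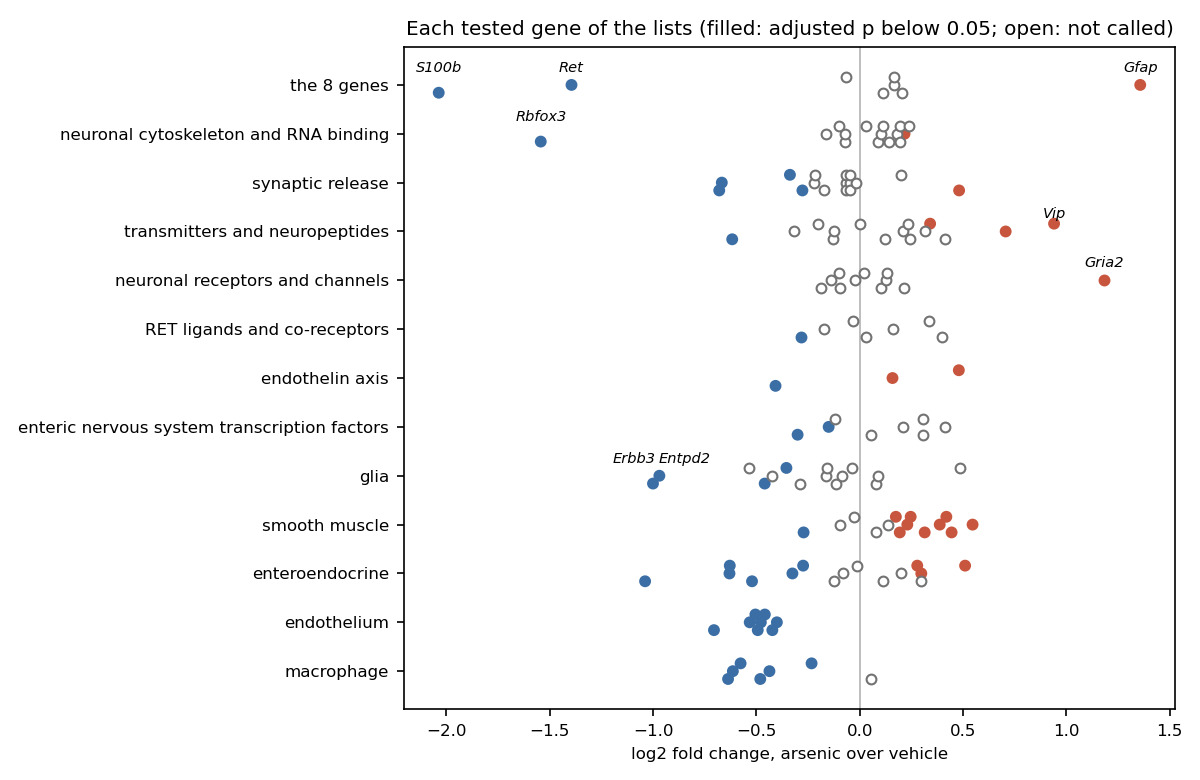
Log2 fold change (arsenic over vehicle) of each tested gene in 13 lists, with filled points for an adjusted p below 0.05 (red higher, blue lower) and open points for genes not called. The neuron and glia lists hold mostly open points near 0, with S100b, Ret, Rbfox3, Erbb3 and Entpd2 on the left and Gfap, Gria2 and Vip on the right, while the endothelium list lies wholly on the left.

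Several of these genes have broadly expressed relatives. Of 18 listed relatives 10 rose, 4 fell and 4 did not pass (median log2 0.41), where 32.3% of all tested genes rose and 33.0% fell. Elavl3 and Tubb4a, also named below, are counted in the list of neuronal cytoskeleton and RNA-binding genes and are not among these 18. Elavl1 (HuR), the form of the RNA-binding protein in all cells, rose from 71.3 ± 4.62 to 96.2 ± 5.99 CPM (log2 0.43, interval 0.32 to 0.54), while the neuronal Elavl3 had a log2 value of -0.16 and the rare Elavl2 of 0.41, both not called. The hydrolases Uchl3 and Uchl5, which unlike Uchl1 are widely expressed, rose by log2 0.66 and 0.71. Among the beta tubulins Tubb4b (log2 0.86) and Tubb5 (0.72) rose most, Tubb2b (0.41) and Tubb6 (0.31) rose less, and Tubb2a (-0.15) and the neuronal Tubb4a (0.18) were not called. Tubulin genes are alike in sequence, and no source used here says how reads shared between copies were counted, which leaves the small difference of Tubb3 uncertain. Snap23 and Snap29, the SNAREs of other cells, fell by 0.13 and 0.23 on the log2 scale, and Snap47 was not called (0.08). The relatives of S100b were divided. S100a1 fell from 118 ± 3.71 to 42.9 ± 2.34 CPM (log2 -1.45), and S100a6 rose from 23.5 ± 1.86 to 106 ± 14.98 CPM (log2 2.18), S100a11 by log2 1.14 and S100a10 by 0.42. Sox9, a factor of crypt epithelium, fell by 0.41 on the log2 scale, and Vim, the intermediate filament of mesenchyme that glia also use, stood at 145 ± 4.06 and 147 ± 6.94 CPM (not called).

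**Figure D3:**
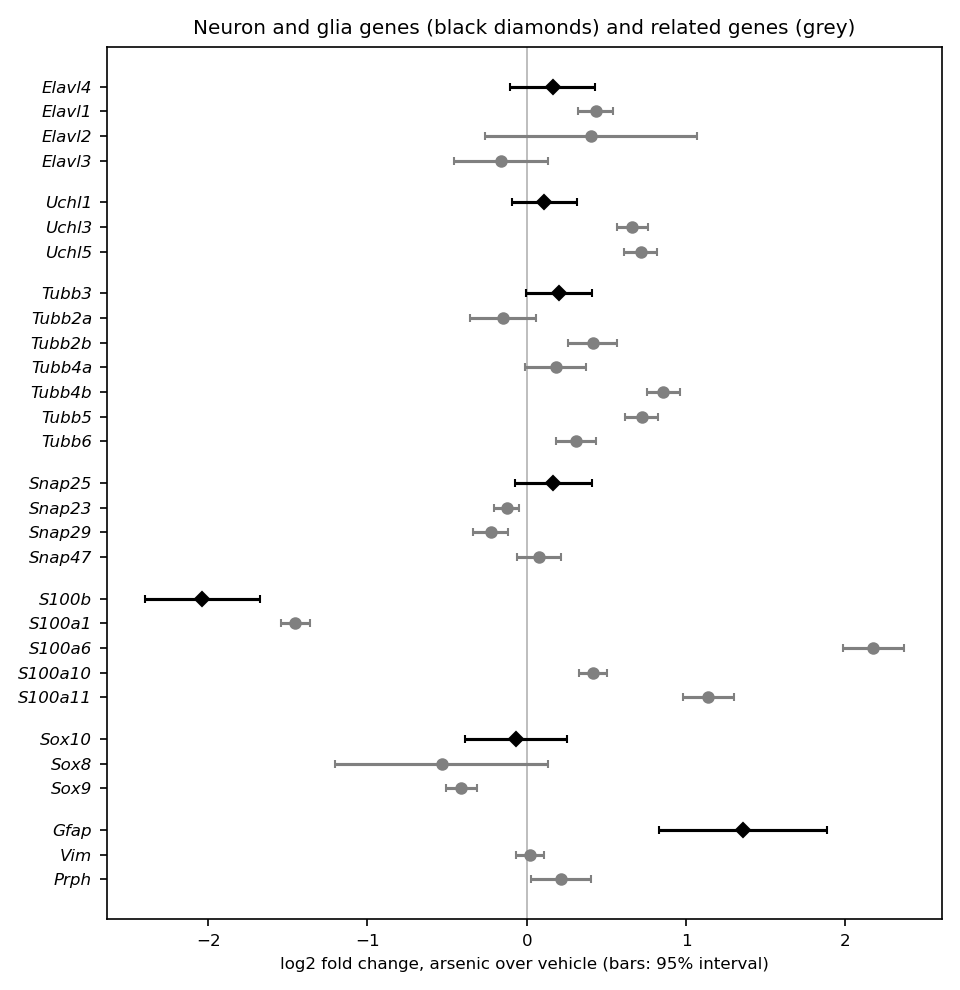
Log2 fold change (arsenic over vehicle) with its 95% interval for 7 of the 8 genes (black diamonds) and for related genes (grey), in family order. The intervals of Elavl4, Uchl1, Tubb3, Snap25 and Sox10 cross 0, whereas those of Elavl1, Uchl3, Uchl5, Tubb4b and Tubb5 lie above it and those of S100b and S100a1 below it.

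Markers of the muscle in which the myenteric neurons lie were mostly higher with arsenic. Of 14 smooth muscle genes 9 were higher, 1 was lower and 4 did not pass (median log2 0.21), and their sum ran from 3472 to 3765 CPM in the vehicle pools and from 3780 to 4540 CPM in the arsenic pools. Arsenic replicate 3, which had the highest level of Uchl1, Tubb3, Snap25, Elavl4, Sox10 and Gfap among the arsenic pools, also had the highest muscle sum. Because the muscle sum was itself higher with arsenic, a ratio to it is lower for a gene that did not change. The mean sums of interstitial cell of Cajal genes (66.5 CPM with vehicle and 56.1 with arsenic) and of fibroblast genes (3139 and 3025 CPM) were not higher. Ratios to other cell types were not taken. Set against the muscle sum, Tubb3 stood at 2.10 ± 0.102 CPM per 1000 muscle CPM with vehicle and 2.10 ± 0.101 with arsenic. Elavl4 stood at 1.5003 ± 0.241 and 1.47 ± 0.0520, Uchl1 at 3.31 ± 0.0923 and 3.10 ± 0.195, and Snap25 at 2.27 ± 0.289 and 2.22 ± 0.0915 CPM per 1000 muscle CPM. On this scale the groups again overlapped for these 4 genes and for Sox10 (1.03 ± 0.200 and 0.854 ± 0.0794), and were apart for Ret (24.7 ± 0.933 and 8.27 ± 0.887), S100b (1.81 ± 0.105 and 0.382 ± 0.0996) and Gfap (0.140 ± 0.0395 and 0.300 ± 0.0359).

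**Figure D4:**
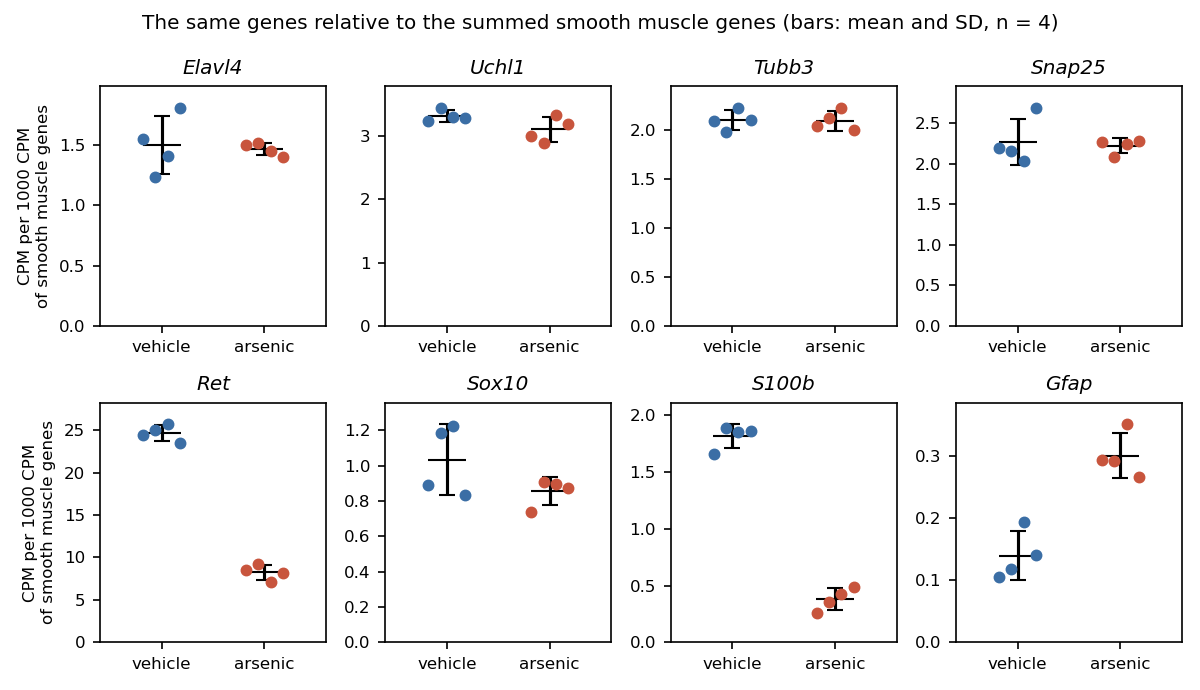
CPM of each of the 8 genes per 1000 CPM of the 14 summed smooth muscle genes in each pool (vehicle blue, arsenic red, each panel starting at 0), with mean and SD as black bars. Tubb3 has the same mean in both groups, Ret and S100b lie lower in every arsenic pool and Gfap higher. The muscle sum was itself higher with arsenic.

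Other cell types that can carry some of these transcripts gave the following values, and their part in the results was not tested. The enteroendocrine list, whose cells share Snap25 and Uchl1 with neurons, had 3 of 15 genes higher and 6 lower, and summed to 522 to 555 CPM with vehicle and 470 to 494 CPM with arsenic. Adipocytes also make S100b. Their 5 listed genes summed to 143 to 182 CPM and 152 to 186 CPM, almost all of it from Cidec, which enterocytes also express. Of 4 tested genes 1, Retn, was lower, a call lost in 6 of 15 alternatives. The fat cell hormone gene Adipoq stood at 1.64 ± 1.01 and 1.73 ± 0.468 CPM. Sox10 also marks melanocytes, and of their 6 listed genes Tyrp1 had 0 counts in all pools and Tyr and Slc45a2 were close to it. Dct, a target of SOX10 in melanocytes, fell from 12.6 ± 1.36 to 1.10 ± 0.233 CPM, 11.3-fold lower (adjusted p = 2.48e-11, edgeR), and the sum of that list was 12.7 to 16.8 CPM with vehicle, most of it Dct, and 2.21 to 3.26 CPM with arsenic. Pmel, the other tested gene of the list, stood at 1.68 and 1.43 CPM and was not called. All 8 endothelial genes and 6 of 7 macrophage genes were lower, with sums of 460 to 501 against 329 to 360 CPM and of 217 to 249 against 155 to 176 CPM. Of 3 genes of interstitial cells of Cajal, the pacemakers beside the myenteric plexus, Ano1 fell from 28.9 ± 1.02 to 21.2 ± 1.078 CPM, and Kit and Etv1 did not pass. Kit (adjusted p = 0.0616, edgeR) was called lower in 5 of 16 alternatives, those with upper-quartile scaling (0.0389), a robust fit (0.0494) or without vehicle replicate 2 (0.0227), arsenic replicate 3 (0.0492) or arsenic replicate 4 (0.0385). The sum of the 3 genes was 62.7 to 68.8 CPM and 51.7 to 60.4 CPM. Of 8 fibroblast genes 2, Dcn and Lum, were called lower. That number was 0 without vehicle replicate 3, arsenic replicate 2 or arsenic replicate 4 and in DESeq2, and 4 without arsenic replicate 3. It was 1 without vehicle replicate 4 or arsenic replicate 1. Dcn also lost its call with RLE scaling, without a filter on low counts and with a filter of at least 1 CPM in 4 libraries. The fibroblast sums overlapped (2940 to 3256 and 2877 to 3285 CPM), as did those of 4 mesothelial genes (6.56 to 12.6 and 7.56 to 13.3 CPM, none called) and of 7 genes of pancreatic acinar cells (2313 to 4403 and 2270 to 5045 CPM, none called). In the alternatives the mesothelial genes Lrrn4 and Wt1 were called higher 5 times and 1 time. Of the acinar genes Prss2 was called higher in 4 and Pnlip in 1, Cela1 lower in 3 and Amy2b in 1. Of 7 epithelial genes 4 were higher and 2 lower, with sums of 6816 to 7060 and 8314 to 8778 CPM.

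The genes whose course over the 8 pools was nearest to the mean course of the neuron genes were Ngfr, Nfix, Fzd2, Cdc42ep3, Marveld1 and Cd59a, by the root mean square difference of centred log2 CPM (0.04 to 0.05 log2 units among 13463 genes with at least 1 CPM). Ngfr is the low-affinity neurotrophin receptor, used to sort enteric neural crest cells. The mean course is drawn down by Ret, whose own distance from it was 0.63, against 0.15 to 0.19 for Uchl1, Snap25, Tubb3 and Elavl4. For the glial genes the nearest were Kcna2, Ager, Cep44, Efnb3, Pcsk1n and Rwdd3 (0.10 to 0.12), but S100b (0.88) and Gfap (0.77) were far from the mean of their own group, and Sox10 was at 0.16.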

How the data were processed

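RNA was measured in 8 pools, 4 per treatment. Groups came from the treatment label and replicate numbers are only names. The authors deposited raw counts per gene symbol, which were the input of every test. Per the submitters' processing notes, STAR 2.7.9a, DESeq2 1.34.0 and the mm10 build were used. The sources used here name no read counter, annotation or strand setting. From the authors' deposited table, log2 fold changes and adjusted p-values were copied for Ret, S100b and Gfap.

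Genes were kept by filterByExpr (minimum count 10, total 15) and scaled by TMM. The edgeR 4.0.16 quasi-likelihood test (R 4.3.3, two-sided, group only) used Benjamini-Hochberg adjustment over 15298 genes at 0.05. SE is the log2 fold change over the root of F. The test was also run on simulated counts in which few genes were changed. In the real data most genes were called, so that run does not measure false calls here. Alternatives were RLE and upper-quartile scaling, DESeq2 1.42.0, limma-voom (limma 3.58.1), a robust fit, other filters and pools left out. Within groups, every pair of pools differed beyond counting error (chi-square over its degrees of freedom from 3.06 to 14.0), and p-values measure the spread between pools.

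Members and lists were chosen with earlier results of these data known. Named genes are the 8 members, up to 4 genes with the smallest p per list, all relatives and the 6 nearest profiles. Every other gene named was chosen after its values were seen. Some listed genes are counted but not reported here by name.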

Additional observations from a re-analysis of the deposited data

Results flagged for a closer look

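In 2 of the 16 groups of 4 pools examined for the 8 genes, 1 pool stood far from the others by its gap to the nearest pool relative to the whole range of the group. Chance alone flags about 1 in 20 such groups. Snap25 in vehicle replicate 4 was at 10.1 CPM, and without that pool its log2 change was 0.30 (adjusted p = 0.0212, edgeR). The pool was flagged for its high Snap25 level, so this p-value is no separate evidence of a rise. Gfap in arsenic replicate 3 was at 1.59 CPM, and without that pool the log2 fold change of Gfap was 1.19 (adjusted p = 0.000932, edgeR).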

How the results depend on the processing

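Ret, S100b and Gfap kept direction and call under all 16 alternatives, with log2 changes from -1.42 to -1.36, from -2.17 to -1.85 and from 1.19 to 1.54. With 1 pool left out the number of the 8 genes that rose ranged from 1 to 3 and the number that fell was 2 each time. Over the same settings the log2 change ranged from 0.074 to 0.30 for Elavl4, from 0.10 to 0.30 for Snap25 and from 0.11 to 0.25 for Tubb3, each called higher in 1 of them. The cause was not tested. Uchl1 (0.01 to 0.17) and Sox10 (-0.16 to 0.03) were never called. The listed neuron and glia genes that rose numbered 6 to 16 with 1 pool left out and 5 without both vehicle replicate 4 and arsenic replicate 3. No setting moved the median of all genes by more than 0.1 log2. No paired analysis was possible because the labels give the groups no shared replicate numbers. Depth limits Gfap, Rbfox3, Npy and other genes near 1 CPM, whose intervals are wide.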

Other observations

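Each of the 8 genes had its own nearest neighbours in course over the 8 pools, listed after the values were seen and as a description only. Nearest to Tubb3 were the muscle genes Jph2, Hspb8, Smtn and Myh11, at 0.04 to 0.06 log2 units. Nearest to Elavl4 were Shisa3, Map6, Rims1 and Cdh6, of which Map6 and Rims1 code for a neuronal microtubule protein and a protein of the presynaptic active zone, and nearest to Snap25 was the enkephalin precursor Penk (0.06). Ret ran closest to Sema7a, which went from 365 to 142 CPM (log2 -1.36), followed by Parp14, Cxxc5 and Ang. S100b ran closest to Pdzd7, H2-M2, Cyp2w1 and Hoga1, all with log2 changes between -2.30 and -1.77. Nearest to Gfap were Slc17a8, a vesicular glutamate transporter (0.621 to 1.39 CPM), the lectin gene Lgals3 (124 to 329 CPM), the neuropeptide precursor Vgf (0.832 to 1.62 CPM) and the clock gene Nr1d1.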
